A study of Mus with 2 samples.

Results

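The cells described here are Cited1-positive, Six2-positive nephron progenitors of the newborn mouse kidney with little or no Top2a. They were chosen by counts of UMIs (unique molecular identifiers, each standing for 1 captured RNA molecule) of 5 genes in single cell barcodes. A member had at least 1 Six2 UMI, at least 2 Cited1 UMIs, at most 1 Top2a UMI, no Pecam1 UMI and at most 1 Col3a1 UMI. Top2a marks dividing cells, Pecam1 endothelium and Col3a1 stroma. The barcode also had at least 2000 UMIs and at most 10% of them from mitochondrial genes. Of 11369 kept barcodes, 1118 were members. They made up 501 of 6220 kept barcodes in replicate 1 (8.06%, exact binomial 95% interval 7.39% to 8.76%) and 617 of 5149 in replicate 2 (12.0%, 11.1% to 12.9%), a mean of 10.0% ± 2.78 (SD, n = 2 libraries). The intervals cover counting error only, and they did not overlap. The order of the libraries turned at a mitochondrial limit of 5%, where the shares were 3.32% and 2.88%.

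Both libraries came from kidneys at P0 (postnatal day 0) with the genotype Rbpj c/- ; Foxd1cre/+, made with the Chromium 10X system. The design removes a floxed Rbpj allele with Foxd1Cre, a Cre of the renal interstitium, and the other Rbpj allele is written as a minus allele. The control group, Rbpj c/+ ; Foxd1cre/+, carries the same Cre and was not analysed here, so no value below measures an effect of Rbpj loss. The labels do not say how many animals gave a library or whether the libraries came from separate animals. The p-values set differences between groups of barcodes only against how far those differences varied between these 2 libraries. That spread was estimated over all groups of a fit, with information shared between genes. All levels are CPM, UMIs of a gene per 1000000 UMIs of a group of barcodes summed within a library, and pairs of values are given as replicate 1 and then replicate 2.

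Nephron progenitors form the cap mesenchyme, a layer of cells around each tip of the branching ureteric bud. Six2, a homeobox factor, holds them as progenitors, and Cited1, a transcriptional coregulator, marks the least committed of them and is switched off before Six2. Wnt, FGF and BMP signals act both in upkeep and in commitment, when Wnt4 and Lhx1 come on and the cells condense into renal vesicles, where Notch signalling is used.

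Total depth over all barcodes was 163405630 UMIs in replicate 1 and 135436576 in replicate 2. The members had a median depth of 13994 and 13487 UMIs, against 11608 and 11898.5 in the other kept barcodes. Their median mitochondrial share was 5.74% and 6.28%, against 5.05% and 5.37%. Barcodes over 50000 UMIs numbered 18 and 15 among the members. The libraries shared 6 kept barcode sequences, none of them in a member. Xist stood at 1546 and 0.0973 CPM in the members and the Y-linked Ddx3y at 0 and 81.7 CPM, so the libraries differed in sex-linked RNA.

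Six2 was seen in 1311 and 1238 kept barcodes, of which 799 and 819 had 2 or more Cited1 UMIs. The Top2a limit then left 529 and 637, a larger cut in replicate 1, and the limits for Pecam1 and Col3a1 together removed few more. A further 98 and 85 barcodes met every other condition without a Six2 UMI, and they count among the others. Members had a median of 10 and 11 Cited1 UMIs, and of 4 Six2 UMIs in each library. At the threshold, 33 and 27 members had exactly 2 Cited1 UMIs, with Crym at 95.5 and 106 CPM and Wnt4 at 259 and 175 CPM. Just outside it, 63 and 61 barcodes with 1 Cited1 UMI had Crym at 72.9 and 52.8 CPM and Wnt4 at 347 and 427 CPM. These values lie at the choice of the members and have no test.

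The 3 progenitor markers that the gate did not use were listed with earlier results of these data known. Their levels describe the label and are no independent check of it. Crym, which encodes mu-crystallin, a thyroid hormone binding protein, stood at 204 and 219.8 CPM in the members (mean 212 ± 11.4, SD, n = 2) and 22.5 and 22.7 CPM in the other barcodes. Eya1, a phosphatase and coactivator that partners Six2 and its relatives, stood at 210.4 and 219 CPM against 36.4 and 36.1. Meox1, a homeobox factor, stood at 41.2 and 62.5 CPM against 10.8 and 10.6. All 3 were higher in the members in both libraries. Because depth differed between groups, each barcode was thinned at random to 8000 UMIs, which left out 19 and 13 shallower members and 289 and 176 endothelial barcodes. Crym then had a UMI in 69.3% and 73.7% of members (82.8% and 85.7% before thinning) and Eya1 in 77.8% and 77.3% (88.4% and 88.0% before). In endothelial barcodes (2 or more Pecam1 UMIs, median depth 9620 and 10214), which should lack both genes, the thinned shares were 2.02% and 1.90% for Crym and 2.47% and 2.22% for Eya1. For Meox1 the thinned share was 24.9% and 30.0% in members and 35.2% and 33.9% in endothelial barcodes, so Meox1 alone did not set the members apart from endothelium. The counts do not show whether the cells renew themselves.

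The 5 markers lie at chr17:85662736-85688254 (Six2), chrX:102247378-102252181 (Cited1), chr7:120186380-120201989 (Crym), chr11:101877510-101894354 (Meox1) and chr1:14168953-14311035 (Eya1), as whole genes in RefSeq on GRCm38.p6.

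**Figure D1:**
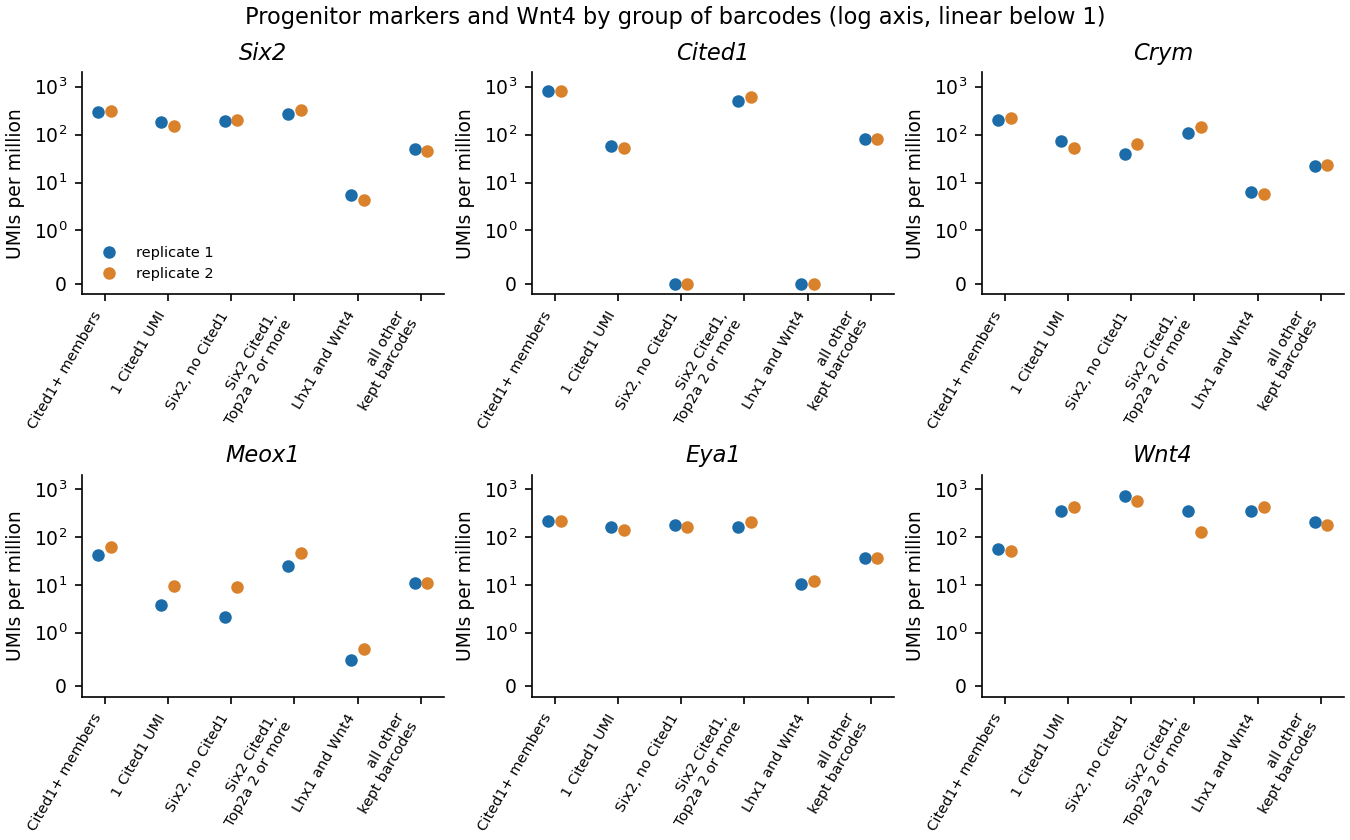
CPM (vertical axis, log scale that turns linear near 0) of 6 genes in 6 groups of barcodes, with 1 point per library. Six2 and Cited1 chose the groups; Crym stood at 204 and 219.8 in the members and at 38.8 and 62.7 in Six2 cells without Cited1, and Wnt4 at 55.9 and 51.8 and at 698 and 559.8.

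Markers of other cell types were low in the members, but not all were near 0. The 5 endothelial markers summed to 5.94 and 2.73 CPM and the 6 immune markers to 3.78 and 4.09 CPM, with Csf1r at 0 in replicate 1. The 5 mural markers summed to 20.7 and 13.0 CPM, with Ren1 at 0 in replicate 1. The 10 stromal markers summed to 121 and 128 CPM, against 748 and 866 in the other barcodes. The 6 podocyte markers summed to 454 and 213 CPM against 1575 and 1757. The 5 erythroid markers summed to 1369 and 1504 CPM against 19410 and 17540, and the 8 ureteric markers to 53.0 and 24.4 CPM against 421 and 401. Of 4 neural markers, Sox10 and Tubb3 had no UMI in the members of either library.

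A few members of replicate 1 held much of the tubule RNA. Slc12a1, the sodium cotransporter of the loop of Henle, stood at 59.9 and 7.59 CPM, with 89.5% of its UMIs in 5 cells of replicate 1. Without barcodes over 50000 UMIs, the level of Slc12a1 in replicate 1 was 34.5 CPM. Scrublet marked 329 and 225 kept barcodes as doublets, 7 and 5 of them members.

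The libraries otherwise gave like members. Of 6242 genes with at least 20 CPM in the members of a library, 43 (0.689%) differed more than 2-fold, 36 of them higher in replicate 1 and 7 in replicate 2. Traf1, an adaptor of TNF receptors, stood at 28.6 and 82.7 CPM and was spread over 160 and 364 cells. Col1a1, a stromal collagen, stood at 5.29 and 29.4 CPM, in 42 and 184 cells. With 1 library on each side, these differences have no test.

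The first comparison set the members against all other kept barcodes of the same library and asks what marks progenitors within the kidney. Sums were tested with edgeR's quasi-likelihood test with library as a block, leaving out the 5 gate genes. A gene was called at a Benjamini-Hochberg adjusted p under 0.05 and a difference of at least 1.5-fold. Of 16427 genes tested, 1821 were called higher in the members (11.1%) and 4454 lower (27.1%). The comparator mixes all other cell types of the kidney, and each list below is read against these shares. Without TMM scaling, on plain CPM, the median log2 fold change moved by -0.17, over the 5473 more abundant genes. This and the later comparisons share the same member sums.

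Of 26 regulators of progenitors tested, 21 were higher in the members and 2 were lower (median log2 fold change 1.05, against -0.04 over all genes tested). Osr1, a zinc finger factor of the early kidney mesenchyme, stood at 77.1 and 76.0 CPM in the members and 16.5 and 16.0 in the others (log2 fold change 2.40, SE 0.07, edgeR adjusted p = 9.2e-11). Meox2 stood at 41.7 and 33.3 CPM against 8.87 and 7.13 (log2 fold change 2.40, SE 0.10, edgeR adjusted p = 1.3e-09). In both genes the members of each library lay above the others of each library. Itga8, an integrin subunit that binds nephronectin, stood at 132 and 133 CPM against 44.7 and 42.4 (log2 fold change 1.77, SE 0.06, edgeR adjusted p = 4.4e-10). Robo2, a Slit receptor, stood at 399 and 366 CPM against 116 and 119 (log2 fold change 1.87, SE 0.06, edgeR adjusted p = 1.3e-10). The Hox genes Hoxa10, Hoxa11, Hoxc10, Hoxc11, Hoxd10 and Hoxd11, which pattern the kidney along the body axis, were also among the 21. Cited2, a relative of Cited1, went the other way, at 116 and 100.1 CPM against 213 and 207 (log2 fold change -0.79, SE 0.06, edgeR adjusted p = 3.2e-07). Lin28b, the other gene called lower, had no UMI in the members and stood at 0.308 and 0.277 CPM in the others.

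The 10 genes with the largest rise, among those at 20 CPM or more, were Ocm, Pnmt, Actn3, Has2, Crym, Tcap, Siglecg, Traf1, Rspo3 and 2610028E06Rik. Ocm encodes oncomodulin, a calcium-binding protein, and stood at 52.0 and 34.1 CPM against 2.63 and 1.80 (log2 fold change 4.45, SE 0.11, edgeR adjusted p = 4.2e-11). Pnmt, the enzyme that turns noradrenaline into adrenaline, stood at 69.5 and 73.3 CPM against 6.14 and 6.28 (log2 fold change 3.69, SE 0.08, edgeR adjusted p = 2.2e-11). Has2, a hyaluronan synthase, stood at 93.2 and 102 CPM against 10.6 and 9.99 (log2 fold change 3.41, SE 0.08, edgeR adjusted p = 2.6e-11). Actn3 and Tcap are genes of the muscle sarcomere, and stood at 22.8 and 27.1 and at 17.4 and 22.9 CPM in the members against 2.09 and 2.66 and against 2.24 and 2.27. After thinning, Ocm had a UMI in 26.8% and 19.5% of members, Pnmt in 30.5% and 30.6% and Has2 in 43.8% and 43.7%. The same shares in endothelial barcodes were 0.224% and 0%, 1.12% and 0.633% and 0.897% and 1.27%. Dividing cells, which met the other gate conditions but had 2 or more Top2a UMIs, came closer to the members. Their thinned shares were 10.3% and 11.4% for Ocm, 25.8% and 25.1% for Pnmt and 36.1% and 35.9% for Has2.

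Of 26 Wnt ligands, receptors and targets tested, 7 were higher and 14 lower (median log2 fold change -0.72). The 7 were the receptors Fzd2 and Fzd3, the R-spondins Rspo1 and Rspo3, which strengthen Wnt signalling, the repressor Tcf7l1, the feedback gene Axin2, and Fam19a5. Rspo3 stood at 88.5 and 142 CPM against 11.9 and 17.5 (log2 fold change 3.13, SE 0.07, edgeR adjusted p = 2.1e-11). Rspo1 stood at 247 and 302 CPM against 66.4 and 67.1 (log2 fold change 2.21, SE 0.07, edgeR adjusted p = 3.2e-10), and Fzd2 at 268 and 239.9 CPM against 93.5 and 82.7. The ligand Wnt4 stood at 55.9 and 51.8 CPM against 206 and 180.3 (log2 fold change -1.67, SE 0.06, edgeR adjusted p = 8.2e-10) and Lef1, a nuclear partner of beta-catenin, at 3.99 and 1.17 CPM against 19.8 and 23.2. Both were lower in the members of each library.

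FGF and GDNF genes held 8 higher and 3 lower of 21 tested (median log2 fold change 0.07). Fgf20, a ligand known to keep nephron progenitors, was low at 13.8 and 11.3 CPM but lower still in the others, at 1.75 and 1.47 (log2 fold change 3.13, SE 0.19, edgeR adjusted p = 5e-08). Fgf1 stood at 44.4 and 48.1 CPM against 9.43 and 8.12, and Gas1, a membrane coreceptor, at 548 and 577 CPM against 146 and 143. Gdnf, the ligand that makes the ureteric bud branch, stood at 25.04 and 17.4 CPM against 14.4 and 13.5 (log2 fold change 0.76, SE 0.12, edgeR adjusted p = 0.00015). The call of Gdnf was lost with barcodes of 8000 to 30000 UMIs only (log2 fold change 0.16) and without barcodes over 50000 UMIs (0.39). Its receptor Ret, a gene of the bud, stood at 0.216 and 0.0973 CPM against 7.37 and 5.28.

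Genes of commitment and early nephron formation were lower in 25 of 30 and higher in 2 (median log2 fold change -3.26). Lhx1, a homeobox factor of the renal vesicle, stood at 9.28 and 18.1 CPM against 223 and 242 (log2 fold change -3.92, SE 0.14, edgeR adjusted p = 4.9e-10), and 5 cells held 70.9% and 82.3% of its UMIs in the members. Emx2 stood at 7.99 and 2.43 CPM against 97.6 and 96.8, and Ccnd1, cyclin D1, at 56.6 and 64.7 CPM against 439 and 440.1. The 2 genes called higher were Bmper, a BMP binding protein, at 16.7 and 13.0 CPM against 10.3 and 9.38, and the chemokine receptor Cxcr4, at 21.6 and 20.5 CPM against 7.60 and 6.48.

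Notch genes were lower in 10 of 17, and Rbpj, at which the pathway ends, was the only one called higher (median log2 fold change -0.77). The ligand Jag1 stood at 5.07 and 4.96 CPM against 60.3 and 56.5 (log2 fold change -3.37, SE 0.10, edgeR adjusted p = 1.5e-10), and the ligand Dll1 at 2.59 and 1.85 CPM against 26.5 and 26.4. The receptor Notch1 stood at 23.6 and 24.7 CPM against 73.9 and 75.5, and the feedback gene Nrarp at 1.62 and 1.36 CPM against 25.46 and 24.97. The target Hes5 stood at 0.216 and 0.389 CPM against 12.6 and 12.9. Hes1, a target that other signals also switch on, was at 159.8 and 171 CPM against 158 and 144 and was not called.

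Rbpj (chr5:53555779-53657445), the targeted gene and the DNA-binding partner of Notch, stood at 64.1 and 64.1 CPM in the members and 45.2 and 45.2 in the others (log2 fold change 0.68, SE 0.06, edgeR adjusted p = 1.8e-06). On plain CPM the ratio was 1.42 in each library, under the 1.5-fold limit. The call was lost at a mitochondrial limit of 5% (log2 fold change 0.58) and with gates set on barcodes thinned to 5000 UMIs (0.56). Reads were taken at the 3′ end, so RNA of a deleted allele may still be counted. Foxd1, whose locus drives the Cre, stood at 35.5 and 33.1 CPM in the members, 34.3 and 31.5 in the others and 5.98 and 2.46 in endothelial barcodes. After thinning, Foxd1 had a UMI in 18% and 20.7% of members (30.3% and 32.7% before) and in 3.14% and 1.90% of endothelial barcodes. EYFP, a fluorescent protein listed among the features, stood at 7.23 and 8.37 CPM in the members, 65.9 and 64.0 in the others and 20.6 and 14.4 in endothelial barcodes. Its thinned share was 5.19% and 4.47% of members and 8.74% and 6.01% of endothelial barcodes. Whether these counts are background was not tested. The labels do not say what EYFP reports.

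BMP, growth and glycolysis genes gave mixed counts. Of 19 BMP and Id genes, 2 were higher and 8 lower (median log2 fold change -0.48). Id1 and Id4, inhibitors of basic helix-loop-helix factors, stood at 66.6 and 44.3 CPM against 214 and 197 and at 7.34 and 4.96 CPM against 36.4 and 35.9. Of 15 genes of imprinting and growth timing, 4 were higher and 9 lower (median -0.81). Hmga2, a chromatin protein of fetal growth, stood at 212 and 165 CPM against 74.0 and 54.4, Mest at 862 and 996 against 413 and 389.5, and Peg3 at 495 and 637 against 341 and 311. The linked imprinted genes Igf2 and H19 were lower, at 84.3 and 87.3 CPM against 254 and 219 and at 88.6 and 86.3 CPM against 327 and 257. Of 20 glycolysis genes, 4 were higher and 2 lower (median 0.10), with the lactate carrier Slc16a1 at 142 and 161 CPM against 32.8 and 33.8 and the lactate dehydrogenase subunit Ldhb at 234 and 171 CPM against 516 and 453. Of 11 immediate early and heat shock genes, 6 were lower and none higher (median -1.84), with Jun at 23.2 and 26.0 CPM against 108 and 134.

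Some falls follow from the gate and are a description only. All 17 genes of G2 and mitosis tested were lower, in cells chosen for low Top2a, and Mki67 stood at 23.0 and 19.9 CPM against 232 and 244. The 10 genes with the largest fall were Ptprb, Clec1a, Icam2, Igf1, Flt1, Retnlg, Adgrl4, Cdh5, Gm5483 and Fabp4, several of them endothelial, in cells chosen for no Pecam1. Of 10 stromal markers tested, 9 were lower, in cells chosen for low Col3a1. Of 16 genes of S phase and licensing, 5 were lower and 1, the uracil glycosylase Ung, was higher.

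**Figure D2:**
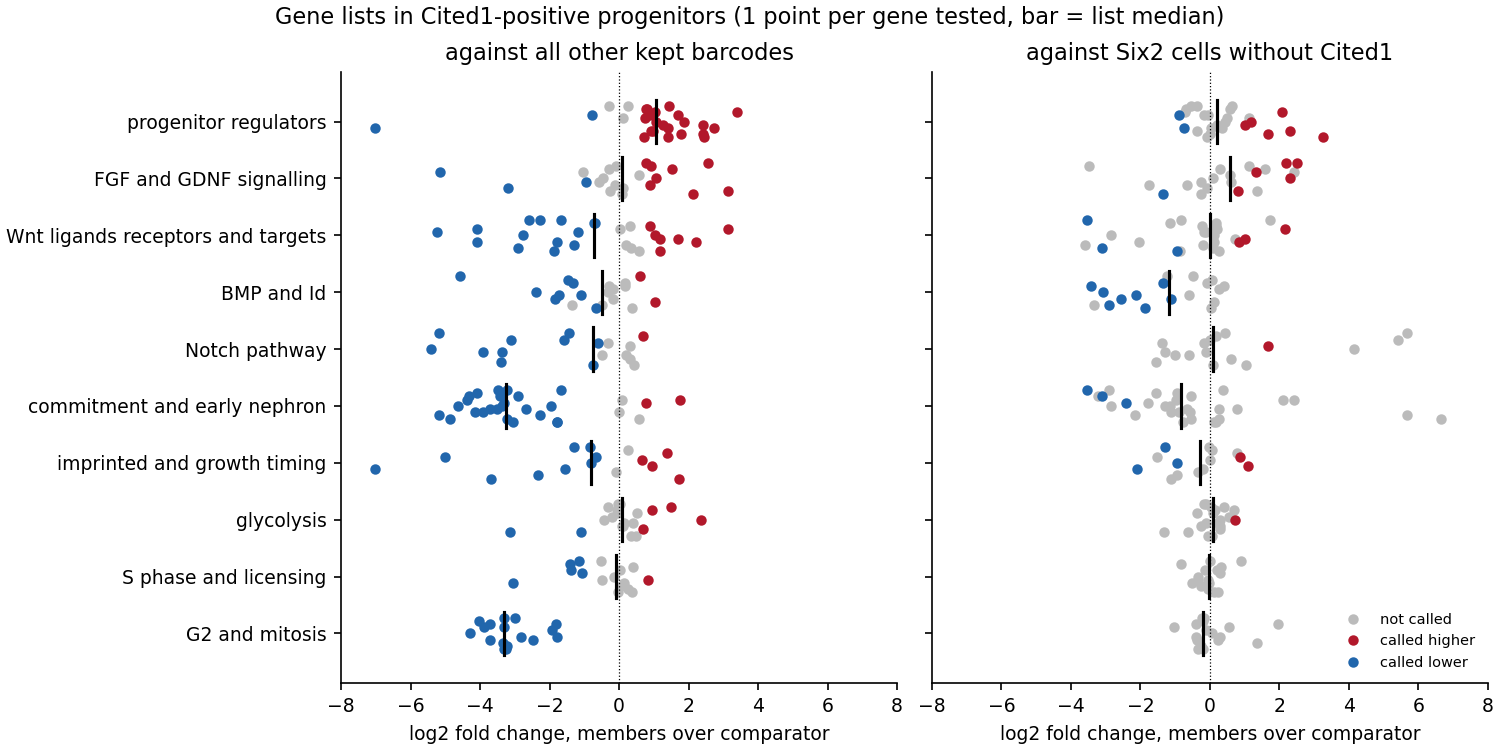
Log2 fold change (horizontal axis) of each tested gene of 10 lists, in the members over all other kept barcodes and over Six2 cells without Cited1. Each point is 1 gene (red called higher, blue called lower, grey not called) and bars are list medians, such as 1.05 and 0.21 for progenitor regulators, -3.26 and -0.82 for commitment genes, and -0.48 and -1.16 for BMP and Id genes.

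The nearest comparator was the cells with 3 or more Six2 UMIs and no Cited1 UMI that met the same limits for Top2a, Pecam1 and Col3a1 as the members, 43 in replicate 1 and 46 in replicate 2, with a median depth of 14348 and 14455 UMIs. Of 14098 genes tested in 1 fit of all gate groups, 150 were called higher in the members (1.06%) and 179 lower (1.27%). The members had more Crym, Itga8, Gas1, Rspo3 and Hes1, and less Wnt4, Bmper, Bmp4 and Id2. Eya1 was not called, at 210.4 and 219 CPM in the members and 177 and 161 in the comparator. The calls rest on few comparator cells. At a mitochondrial limit of 5%, which left 7 and 5 of them, edgeR called 0 genes in either direction, with 1290 at an unadjusted p under 0.05, and with gates set on barcodes thinned to 5000 UMIs it called 10 higher and 22 lower. Of the genes named below, Wnt4, Rspo3, Mycn, Smad7, Id1, Id2, H19, Slc26a7 and Ajap1 kept their call under those thinned gates.

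Of 25 progenitor regulators tested, 6 were higher in the members and 2 were lower (median log2 fold change 0.21, against 0.02 over all genes tested). Crym stood at 38.8 and 62.7 CPM in the Six2 cells without Cited1 (log2 fold change 2.07, SE 0.21, edgeR adjusted p = 0.00062). Itga8 stood at 38.8 and 44.0 CPM there (log2 fold change 1.68, SE 0.13, edgeR adjusted p = 0.00014) and Robo2 at 130.3 and 210.1 CPM (log2 fold change 1.18, SE 0.19, edgeR adjusted p = 0.0095). Etv4, a transcription factor switched on by FGF and GDNF signals, stood at 49.5 and 57.6 CPM in the members against 11.8 and 9.90 (log2 fold change 2.31, SE 0.29, edgeR adjusted p = 0.002). Meox2 stood at 22.6 and 14.3 CPM in the comparator, and Meox1, the other of the 6, rested on 2 and 8 comparator UMIs. Cited2 and Mycn, which supports progenitor growth, were lower in the members, with 197 and 201 CPM and 130.3 and 106 CPM in the cells without Cited1. The direction of Mycn turned at the 5% limit (log2 fold change 0.49).

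FGF, GDNF and Wnt genes also differed between these neighbours. Of 20 FGF and GDNF genes tested, Fgf1, Fgfr1, Gfra1, Gas1 and Etv4 were higher in the members and the FGF antagonist Spry1 was lower (median 0.59). Gfra1, the GDNF coreceptor, stood at 57.3 and 66.5 CPM against 8.61 and 18.7 (log2 fold change 2.20, SE 0.38, edgeR adjusted p = 0.014), and Gas1 stood at 246 and 207 CPM in the comparator (log2 fold change 1.32, SE 0.24, edgeR adjusted p = 0.018). Of 26 Wnt genes, Fzd2, Rspo1 and Rspo3 were higher and Wnt4, Lef1 and Fam19a5 lower. The direction of Fam19a5 turned with thinned gates (log2 fold change 0.08) and at the 5% limit (0.43). Rspo3 stood at 20.5 and 30.8 CPM in the comparator (log2 fold change 2.17, SE 0.22, edgeR adjusted p = 0.00062). Among 17 Notch genes the call was Hes1 alone, at 159.8 and 171 CPM in the members against 44.1 and 60.5 (log2 fold change 1.67, SE 0.18, edgeR adjusted p = 0.0009).

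BMP and Id genes were lower in the members in 8 of 18 and higher in none (median -1.16). They were the ligand Bmp4, its antagonist Nog, the SMAD genes Smad7 and Smad9, and Id1, Id2, Id3 and Id4. Id2 stood at 98.3 and 70.4 CPM in the members against 435 and 306 (log2 fold change -2.13, SE 0.13, edgeR adjusted p = 7.1e-05). Id1 stood at 66.6 and 44.3 CPM against 207 and 195 (log2 fold change -1.86, SE 0.17, edgeR adjusted p = 0.00049), and Bmp4 at 21.8 and 12.8 CPM against 119.5 and 82.5 (log2 fold change -2.56, SE 0.29, edgeR adjusted p = 0.0011). Id2 was seen in 36 of 43 and 35 of 46 comparator cells and Bmp4 in 20 and 20.

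Of 30 commitment genes, Wnt4, Lef1 and Bmper were lower in the members and none was higher (median -0.82). Wnt4 stood at 55.9 and 51.8 CPM in the members against 698 and 559.8 (log2 fold change -3.53, SE 0.36, edgeR adjusted p = 0.00062), and was seen in 31 of 43 and 34 of 46 comparator cells. Bmper, higher in the members than in all other barcodes, was lower than in the Six2 cells without Cited1, at 16.7 and 13.0 CPM against 104 and 55.0 (log2 fold change -2.41, SE 0.28, edgeR adjusted p = 0.0012), and was seen in 29 and 27 comparator cells. Lef1 rested on few cells, with 16 and 24 comparator UMIs in 7 and 6 cells, and 1 cell held 31.2% and 66.7% of them. Lhx1 was not called, at 9.69 and 31.9 CPM in the comparator. The growth genes split again, with H19 at 504 and 268 CPM in the comparator (log2 fold change -2.09, SE 0.19, edgeR adjusted p = 0.00042), Igf2 at 262 and 169 CPM and Igf2r, all lower in the members, and Peg3 and Hmga2 higher. None of 16 S phase genes and none of 17 mitosis genes was called, as a description, since both groups were chosen for low Top2a.

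The 10 genes with the largest rise over these cells were Mgat4a, Ajap1, Traf1, Dcx, Ocm, Meox1, Pnmt, Siglecg, Mical2 and Has2. Over both libraries the comparator had between 5 and 28 UMIs of each, so their sizes are loose. For Mgat4a, a glycosyltransferase, the CPM ratio was 13.8 (exact 95% interval 5.88 to 42.6, counting error only), from 733 UMIs in the members and 5 in the comparator. For Has2 it was 6.40 (4.42 to 9.66), from 1906 and 28 UMIs. The 10 with the largest fall were Tagln, Pmp22, Acta2, Fxyd4, Lsamp, Dpysl3, Wnt4, Ctgf, Slc26a7 and Smad9. Slc26a7, an anion exchanger, stood at 5.50 and 7.30 CPM against 87.2 and 57.2 (log2 fold change -3.48, SE 0.35, edgeR adjusted p = 0.00062) and was seen in 25 and 22 comparator cells. Some other falls rested on single cells. For Acta2, a smooth muscle actin, 1 cell held 75% and 80.4% of the comparator's UMIs, and for Pmp22 50% and 91.3%. Fxyd4, a gene of the collecting duct, was seen in 1 and 2 comparator cells. With thinned gates the directions of Pmp22 and Fxyd4 turned (log2 fold changes 0.52 and 1.16), and that of Fxyd4 also without barcodes over 50000 UMIs (1.87).

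RNA of other cell types moved with this comparator. The podocyte markers summed to 127 and 2296 CPM in the Six2 cells without Cited1, against 454 and 213 in the members, and 0 of 6 were called. The mural markers summed to 293 and 329.9 CPM against 20.7 and 13.0, with Myh11 and Ren1 at 0 in both libraries of the comparator, and Acta2 and Tagln were called of 4 tested. Their part in the other differences was not tested.

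**Figure D3:**
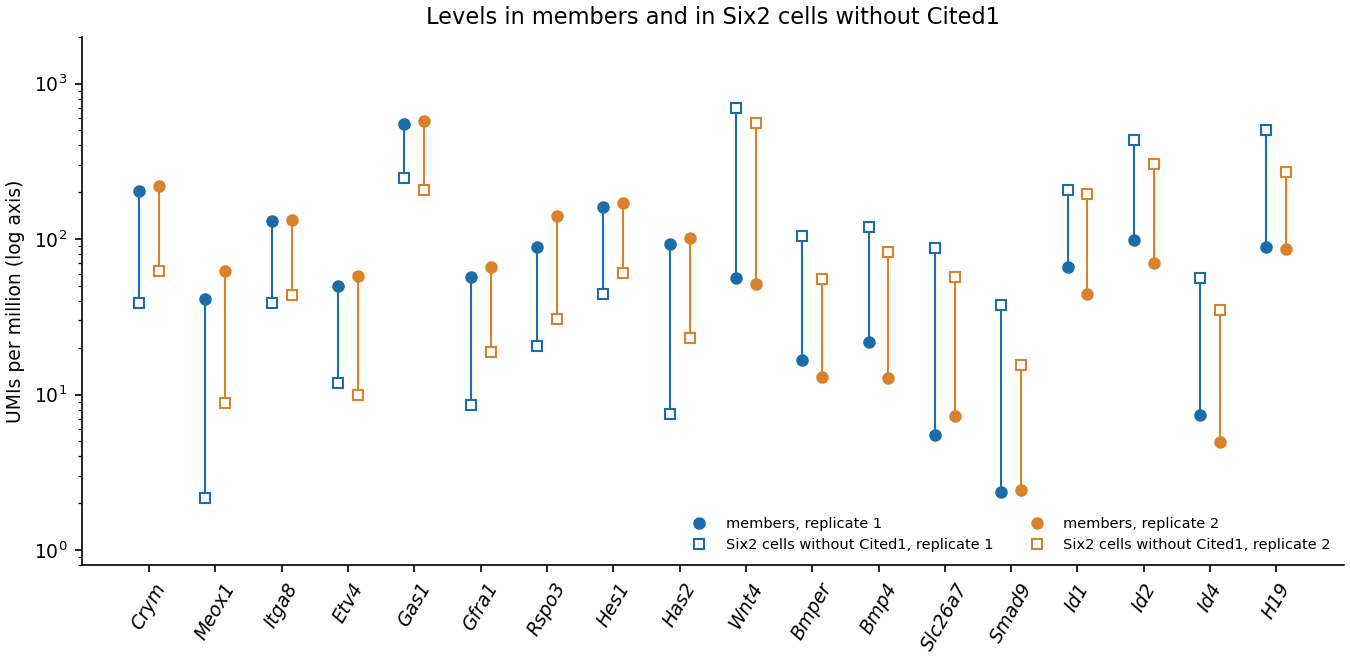
CPM (vertical log axis) of 18 genes in the members (circles) and in Six2 cells without Cited1 (squares), for both libraries. Wnt4 stood at 55.9 and 51.8 in the members and 698 and 559.8 in the comparator, and Rspo3 at 88.5 and 142 and 20.5 and 30.8.

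The same genes varied within the members. In each library the members were ordered by the share of their UMIs that was Cited1 and cut into 3 bins, of 167 cells each in replicate 1 and of 206, 206 and 205 cells in replicate 2. Median depth from the lowest to the highest Cited1 bin was 14595, 13702 and 13994 UMIs in replicate 1 and 13955.5, 13755.5 and 12710 in replicate 2. Wnt4 stood at 129.8, 24.0 and 13.8 CPM in replicate 1 and at 106, 35.7 and 7.01 CPM in replicate 2. Id1 stood at 123, 47.0 and 29.5 CPM and at 68.8, 40.2 and 20.4 CPM. H19 stood at 138, 73.9 and 54.2 CPM and at 146, 65.6 and 40.5 CPM. All 3 were highest where Cited1 was lowest. Crym stood at 149, 201 and 261 CPM and at 179.6, 244 and 239.7 CPM, and Rspo3 at 51.0, 92.3 and 122 CPM and at 103, 168 and 156 CPM. Hes1 and Ocm, like these, were lowest in the bin with the lowest Cited1. Eya1 kept no common order, at 198, 214 and 219 CPM and at 228, 223 and 202 CPM. The bins rest on a gate gene, so these values are a description with no test.

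**Figure D4:**
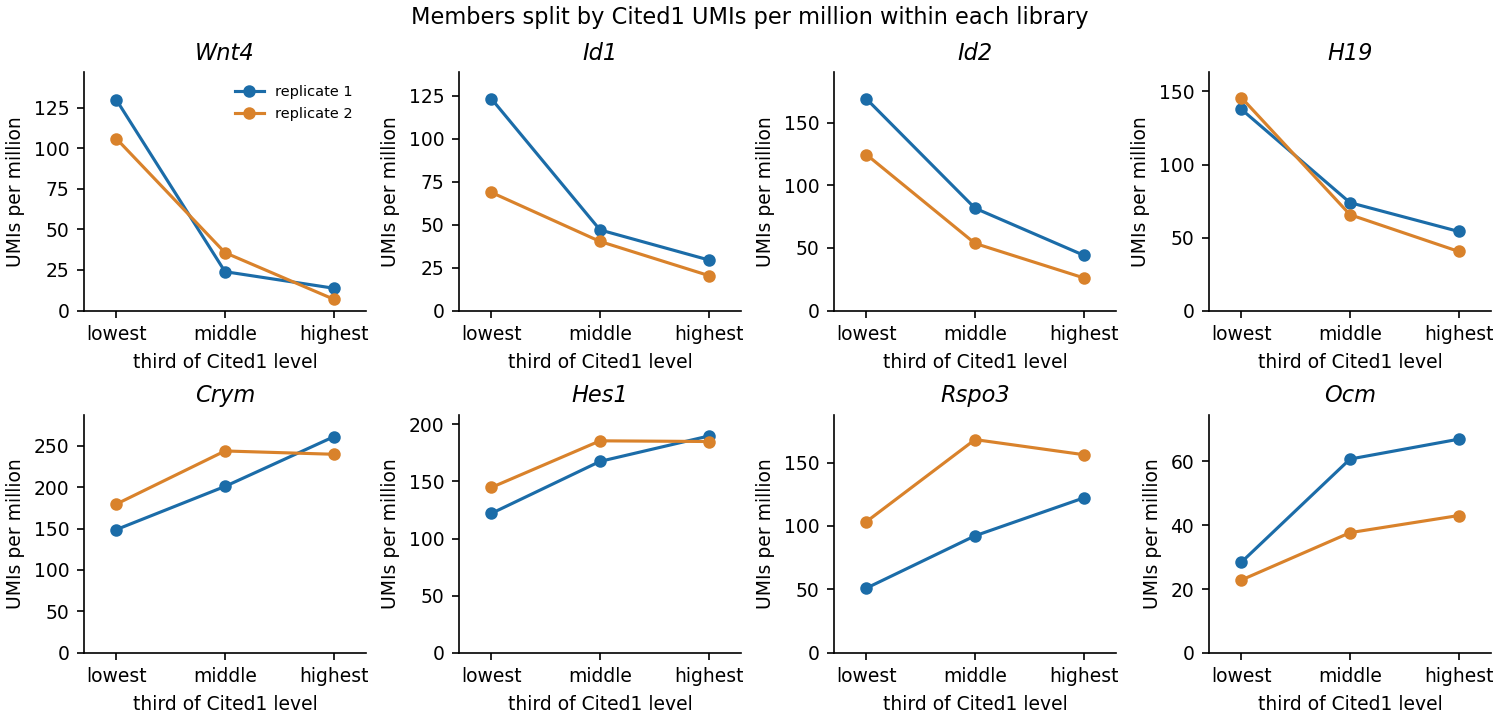
CPM (vertical axes from 0) of 8 genes in members binned by their Cited1 level within each library, with 1 line per library. Wnt4, Id1, Id2 and H19 are highest in the bin with the lowest Cited1, and Crym, Hes1, Rspo3 and Ocm are lowest there.

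Wnt4 was seen in 23.8% and 19.4% of the members, and after thinning in 17.0% and 13.7%, against 4.93% and 6.33% of endothelial barcodes. Members with 2 or more Wnt4 UMIs numbered 72 and 62 and were deeper than those with none, with a median of 18444 against 13277 UMIs and of 16855.5 against 13106. Among members of 8000 to 30000 UMIs, Cited1 stood at 459 and 511 CPM in those with 2 or more Wnt4 UMIs and 919 and 882 CPM in those with none. Rspo3 stood at 34.3 and 31.0 CPM against 118 and 151 CPM, and Id1 ran the other way, at 192 and 109.7 CPM against 39.6 and 28.4 CPM. Six2 stood at 254 and 248 CPM against 304 and 312 CPM. These subsets too have no test.

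For most genes the spread between members was near counting noise. Over 5795 genes with at least 20 CPM, the median ratio of variance to Poisson variance was 1.07, and 224 genes (3.87%) had a ratio of 2 or more. The globins Hbb-bs, Hba-a1, Hbb-bt and Hba-a2 led (Hba-a1 and Hba-a2 are near-identical copies whose reads may be split between them), followed by Gm42418, Malat1, Cdkn1c, Hmgb2, Fxyd2 and Wnt4. Hbb-bs, the most abundant of the erythroid markers here, was seen in 82.6% and 70.0% of members, and 5 cells held 79.4% and 86.5% of its UMIs. The ratio of Wnt4 was 11.5 and 16.6.

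The members were next set against dividing Six2 Cited1 cells, which met the other conditions but had 2 or more Top2a UMIs. They numbered 233 and 169 and were deeper, with a median of 40419 and 26795 UMIs and with 98 and 48 barcodes over 50000. Of 14098 genes, 86 were called higher in the members (0.610%) and 711 lower (5.04%). All 17 mitosis genes and 10 of 16 S phase genes were lower, as a description, since Top2a chose the cells. Mki67 stood at 379 and 391 CPM in the dividing cells, the ribonucleotide reductase subunit Rrm2 at 5.83 and 3.31 CPM in the members against 61.0 and 61.0, and the replication clamp Pcna at 26.1 and 25.7 against 55.7 and 55.2. The 10 largest falls were in Esco2, Hist1h3b, Prc1, Neil3, Aurkb, Nusap1, Bmp2, Pbk, Ska1 and Mxd3.

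Most progenitor regulators did not pass the test here. Of 25, Crym was higher in the members, Cited2 was lower, and 23 were not called (median log2 fold change 0.06, against 0.01 over all genes tested). Crym stood at 109 and 143 CPM in the dividing cells (log2 fold change 0.84, SE 0.15, edgeR adjusted p = 0.0074). Rspo3 stood at 32.9 and 60.9 CPM there (log2 fold change 1.40, SE 0.14, edgeR adjusted p = 9.8e-05) and Ocm at 15.4 and 14.3 CPM (log2 fold change 1.60, SE 0.17, edgeR adjusted p = 0.00017). The 10 largest rises were AY036118, Gm42418, Ocm, Lars2, Rspo3, Colec12, Actn3, Gm26735, Pnmt and Cdc42ep3. Gm42418, a gene model that overlaps ribosomal RNA sequence, stood at 14790 and 19280 CPM against 4435 and 7419.

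Commitment genes were lower in the members than in the dividing cells in 13 of 30 and higher in none (median -1.45). Lhx1 stood at 240.3 and 105 CPM in the dividing cells (log2 fold change -3.55, SE 0.50, edgeR adjusted p = 0.0012) and Wnt4 at 346 and 124 CPM (log2 fold change -2.004, SE 0.34, edgeR adjusted p = 0.0042). These differences moved with the deep barcodes. Without barcodes over 50000 UMIs, the log2 fold change of Lhx1 was -1.16 and its call was lost. That of Wnt4 was -1.09, with its call kept. That of Ccnd1 went from -2.25 to -0.71, of Gm42418 from 1.63 to 0.58, and of H19 from -1.14 to -0.96. Of the 31 named genes of this comparison, 9 lost their call without these barcodes. Lef1, Dll1 and Hes5, also among the 13, turned direction, Lef1 with gates on barcodes thinned to 5000 UMIs (0.56) and Dll1 and Hes5 at 8000 to 30000 UMIs (0.34 and 3.92). With the doublets that Scrublet marked removed, 83 genes were called higher and 694 lower, and all 31 named genes kept direction and call. Beyond that, the part of barcodes that hold more than 1 cell was not tested.

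**Figure D5:**
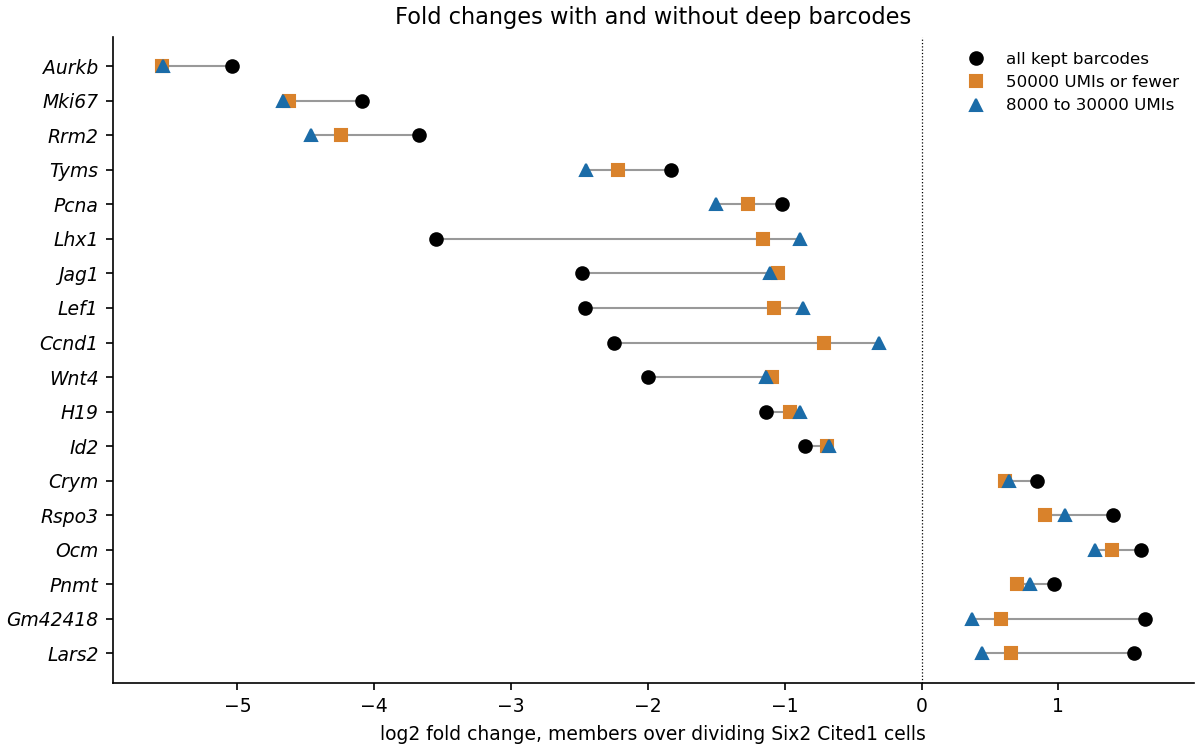
Log2 fold change (horizontal axis) of 18 genes in the members over dividing Six2 Cited1 cells, with all kept barcodes, without barcodes over 50000 UMIs, and with 8000 to 30000 UMIs only. Lhx1 went from -3.55 to -1.16 without the deep barcodes and Gm42418 from 1.63 to 0.58.

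Last, the members were set against cells with both Lhx1 and Wnt4, fewer than 3 Six2 UMIs and no Cited1, under the same limits for Top2a, Pecam1 and Col3a1, 239 and 190 in number. This gate was not a pure stage of the nephron, since the water channel Aqp4, a gene of the collecting duct, was among the 5 largest falls, at 0.108 and 0.195 CPM in the members and 74.3 and 42.1 in these cells. The other 4 were Akr1b7, Muc20, Cxcl10 and Tmem45b. Of 14096 genes, 1644 were called higher in the members (11.7%) and 3010 lower (21.4%). Of 25 progenitor regulators, 23 were higher and 1 lower (median log2 fold change 1.59, against -0.01 over all genes tested). Eya1 stood at 10.5 and 12.0 CPM in these cells (log2 fold change 4.42, SE 0.15, edgeR adjusted p = 1.1e-07) and Itga8 at 4.09 and 5.09 CPM (log2 fold change 5.03, SE 0.13, edgeR adjusted p = 9.3e-09). Of 28 commitment genes, 22 were lower and 2 higher (median -3.65), with Jag1 at 119 and 123 CPM and Emx2 at 190.1 and 192 CPM in these cells. Markers of other types moved with this comparator. All 8 ureteric markers were lower in the members (median -4.96), summing to 53.0 and 24.4 CPM in the members and 1346 and 1013 in these cells. All 6 proximal tubule markers (median -3.77), 5 of 6 podocyte markers (median -2.43) and 3 of 6 immune markers (median -3.01) were lower too. Of 10 stromal markers tested, 3 were higher (Foxd1, Meis1 and Dcn) and 3 lower (Pdgfrb, Postn and Ntn1). Alas2, of 5 erythroid markers, and Elavl4, of 2 neural markers tested, were also higher. Podxl, Cdkn1c, Hnf4a and Pou3f3 stand in the commitment list and also in a marker list of podocytes or tubules. The part of these cells in the other differences was not tested. The 5 largest rises were Pnmt, Siglecg, Ocm, Il33 and Rspo3. Il33, a cytokine held in the nucleus, stood at 162 and 126 CPM in the members against 1.80 and 1.39 (log2 fold change 6.64, SE 0.32, edgeR adjusted p = 3.8e-07), and Cdkn1a, the cell cycle inhibitor p21, at 7.12 and 12.1 CPM against 100.6 and 138.9.

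Across the gate groups, Rspo3 stood at 88.5 and 142 CPM in the members, 32.9 and 60.9 in dividing cells, 32.7 and 42.6 in Six2 cells with 1 Cited1 UMI, 20.5 and 30.8 in those without Cited1 and 1.64 and 0.695 in cells with Lhx1 and Wnt4. The order was the same in both libraries, but dividing cells and cells with 1 Cited1 UMI overlapped. Wnt4, over the first 4 of these groups, stood at 55.9 and 51.8, 346 and 124, 347 and 427 and 698 and 559.8 CPM.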

How the data were processed

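Kidney suspensions of 2 mutant libraries were used, with replicate numbers in record order. The deposited values are raw UMI counts per gene and barcode, from Cell Ranger, version 4 per the file headers and 6.0.1, on mm10, per the submitters' processing notes. The annotation version and the strand setting of the counting are not given in the sources used here. Of 28693 features, 23507 matched RefSeq (GRCm38.p6).

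Barcodes with at least 2000 UMIs and at most 10% mitochondrial UMIs were kept, and doublets were not removed. UMIs were summed per library and group of cells and tested in R 4.3.3 with edgeR 4.0.16 (TMM factors, filterByExpr, quasi-likelihood test, library as a block, Benjamini-Hochberg adjustment over all genes tested). Same-library sums come from the same cell suspension, which is what pairs them. The fit against all others had 4 sums and 1 residual degree of freedom, and the fit of disjoint gate groups 12 sums and 5. The scripts were tested on simulated data.

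Named genes were those of the gene lists, Rbpj, Foxd1, EYFP, and the 10 largest called rises and falls at 20 CPM or more (5 for cells with Lhx1 and Wnt4). Genes named for their difference between the libraries were chosen after their values were seen. The members and the 23 lists were chosen with earlier results of these data known. Alternatives were other gates and cell filters, doublet removal, RLE factors, DESeq2 1.42.0, no low-count filter, no block and each library left out. Thinning each barcode to 8000 UMIs before the fits was chosen after seeing the data.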

Additional observations from a re-analysis of the deposited data

How the results depend on the processing

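The share of members in replicate 1 and replicate 2 was 12.1% and 17.4% among barcodes of 8000 to 30000 UMIs, 9.07% and 13.2% with a Cited1 minimum of 1, 7.11% and 10.5% with a Six2 minimum of 2, 9.07% and 13.5% with a UMI minimum of 5000, 6.86% and 9.62% with gates on barcodes thinned to 5000 UMIs, 3.32% and 2.88% at a mitochondrial limit of 5%, and 11.1% in replicate 2 at a limit of 20%. Against all others, DESeq2 called 1158 genes higher, and the 5% limit left 981 higher and 2498 lower. Against Six2 cells without Cited1, DESeq2 called 374 lower. There, higher and lower calls were 689 and 1824 with a comparator of 1 or more Six2 UMIs, 45 and 58 with 5 or more, 90 and 113 with each barcode thinned to 8000 UMIs, 10 and 22 with thinned gates, 0 and 0 at the 5% limit, and 285 and 491 with no filter on low counts. Against dividing cells, higher calls were 155 at 8000 to 30000 UMIs, 168 with a Cited1 minimum of 1 and 161 with no filter, and higher and lower calls were 32 and 419 with thinned gates and 13 and 277 at the 5% limit. Against cells with Lhx1 and Wnt4, calls were 1091 higher at 8000 to 30000 UMIs, 1023 and 1920 with 8000 UMIs each, and 471 and 778 at the 5% limit. The 5% limit and the thinned gates leave fewer cells, and other causes were not tested.

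In the comparison with Six2 cells without Cited1, directions reversed for Mycn at the 5% limit (log2 fold change 0.49), for Fam19a5 with thinned gates (0.08) and at the 5% limit (0.43), and with thinned gates for Slc16a1 (-0.05) and Pmp22 (0.52). Fxyd4, which rested on 1 cell in replicate 1, reversed at 8000 to 30000 UMIs (1.57), without Scrublet doublets (0.49), without barcodes over 50000 UMIs (1.87), with 5 or more Six2 UMIs (8.66) and with thinned gates (1.16). Against dividing cells, Lef1 reversed with thinned gates (0.56), and Hes5 (3.92) and Dll1 (0.34) at 8000 to 30000 UMIs. Over the named genes and the settings with a test, 724 of 884 values against Six2 cells without Cited1 kept direction and call (each of the 52 genes lost its call or reversed under at least 1 setting), as did 816 of 825 against all others and 406 of 465 against dividing cells.

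Without the replicate block, which here is the library that both groups of a comparison come from, the calls were 147 higher and 178 lower against Six2 cells without Cited1, 58 and 618 against dividing cells and 1625 and 2946 against cells with Lhx1 and Wnt4. With 1 library left out no residual degree of freedom remains, so those values have no test. The comparison with Six2 cells without Cited1 rests on 89 comparator cells in all, at a median depth of 14348 and 14455 UMIs, near that of the members.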

Other observations

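Elavl4, an RNA-binding protein known from neurons, was called higher in the members than in all other barcodes, at 52.4 and 54.0 CPM against 9.94 and 8.36 (log2 fold change 2.71, SE 0.10, edgeR adjusted p = 4.9e-10). The neural markers Sox10 and Tubb3 had no UMI in the members.

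Of 8 D cyclins and CDK inhibitors, 5 were lower in the members than in all other barcodes and none higher (median log2 fold change -2.20). Cdkn1c, the inhibitor p57 and also a podocyte marker, stood at 244 and 187 CPM against 898 and 1001 (log2 fold change -1.98, SE 0.09, edgeR adjusted p = 3.4e-09). Cdkn1b, the inhibitor p27, and the cyclin Ccnd2 were not called, at 47.2 and 47.1 CPM against 71.4 and 74.3 and at 162 and 137 CPM against 197 and 172. In Six2 cells without Cited1, 0 of the 8 were called against the members.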
